A study of Homo sapiens with 4 samples.

Results

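Interferon-stimulated and RNA-sensing genes were examined in 4 RNA-seq libraries of cells labelled HepG2, an established human liver cancer line, after transfection with siRNA. A list of 44 genes was read from the tables of 44591 genes by exact gene symbol. The rule used no measured value, but the list was drawn up with earlier results of these data known. All 44 symbols were found, and all 44 passed the minimum of 5 reads summed over the 4 libraries, as did 23942 genes in all. The groups were siNC, a control siRNA, and siLINC01186, siRNA against the long non-coding RNA LINC01186, also called SALIS, with 2 libraries each. After transfection all cells were kept for 6 h without serum and then for 24 h with serum. Both numbered cultures received siNC of the same kind, whereas siLINC01186 was a different oligo in each, and which oligo went into which library is not in the labels. There was no untransfected library here, so a response common to both siRNAs cannot be seen. The question was whether these genes differed between the siRNAs, and whether they differed between the numbered cultures.

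Cells detect foreign RNA with receptors in the cytoplasm, RIG-I (DDX58) and MDA5 (IFIH1), and with TLR3 in endosomes. The cytoplasmic receptors signal through MAVS and IRF3 to interferon genes. Secreted interferon then acts through JAK kinases and a complex with STAT2 and IRF9, which binds the interferon-stimulated response element (ISRE) in promoters and raises the antiviral genes. Double-stranded RNA such as siRNA can start this pathway, with an outcome that depends on its length, ends, sequence and modifications and on the cell type.

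The siLINC01186 oligos are shown as the RNAs whose effect was asked about, in the DNA letters of the study's oligo table. They had 20 and 19 nt. The sequence of siNC was not analysed here.
siSALIS_01: agggctctattgggcaaaaa
siSALIS_02: ctaagtgactcactgcatc

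The ISRE core was searched in RefSeq promoters of GRCh38.p14, from 250 bases before to 50 bases after each start site, as a pair of GAAA separated by 2 bases of any kind, or its reverse complement, a pair of TTTC separated likewise. Cores may overlap. Of the 44 genes, 34 had a promoter entry, and 24 of these 34 genes held a core. Of all 35116 promoters 3.57% held one, and by gene 4.38% of 27305. Stretches of 30 bases are shown for 8 genes that differed between the numbered cultures (below, ISG15 to PARP14), and for BST2, IFITM3 and EIF2AK2, which did not pass that test. Capitals mark bases within a core. A run of capitals at the left edge belongs to a further core that began upstream. Sequences read 5′ to 3′ on the gene's strand. A match describes the letters and is not evidence of binding.
ISG15, chr1:1013380-1013409, plus strand: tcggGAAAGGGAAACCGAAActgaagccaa
IFI6, chr1:27672266-27672295, minus strand: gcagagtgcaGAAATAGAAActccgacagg
IFI27, chr14:94110631-94110660, plus strand: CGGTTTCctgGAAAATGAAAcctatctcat
IFI44, chr1:78649761-78649790, plus strand: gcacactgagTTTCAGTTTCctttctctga
IFIT1, chr10:89392510-89392539, plus strand: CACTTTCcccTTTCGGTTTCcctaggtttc
IFIT3, chr10:89332468-89332497, plus strand: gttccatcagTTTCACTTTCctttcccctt
ISG20, chr15:88638937-88638966, plus strand: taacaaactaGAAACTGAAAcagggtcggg
PARP14, chr3:122680800-122680829, plus strand: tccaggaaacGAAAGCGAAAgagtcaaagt
BST2, chr19:17405735-17405764, minus strand: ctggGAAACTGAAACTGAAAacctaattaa
IFITM3, chr11:320876-320905, minus strand: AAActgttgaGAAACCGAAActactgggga
EIF2AK2, chr2:37156967-37156996, minus strand: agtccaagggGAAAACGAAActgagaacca

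The libraries held between 14968958 and 17297245 reads on genes, so 3 reads, taken as the lowest level a library could show, amounted to 0.169 to 0.210 CPM (reads per 1000000, scaled by edgeR's TMM method), which covers counting error only. The targeted gene did not differ detectably between the groups. LINC01186 had 15 and 14 reads in siNC replicates 1 and 2, and 12 and 14 reads in siLINC01186 replicates 1 and 2 (log2 fold change -0.12, SE 0.53, unadjusted p = 0.831, edgeR). The labelled cell line went against its defining markers. ALB, which encodes albumin, had 0 reads in both replicate 1 libraries, and 15 (siNC) and 14 (siLINC01186) reads in replicate 2. APOA1 had 0 reads in both replicate 1 libraries, and 21 and 20 reads in replicate 2. AFP, the fetal albumin-like protein, had 2, 4, 6 and 16 reads, and TTR had reads only in siLINC01186 replicate 2, with 3. Over 10 hepatocyte markers the summed level was 6.75 and 7.56 CPM in the replicate 1 libraries, and 18.5 and 17.4 CPM in replicate 2. HNF4A, a liver transcription factor, accounted for most of these reads, with 79, 83, 161 and 188. Here and below, 4 values given together are in the order siNC replicate 1, siLINC01186 replicate 1, siNC replicate 2 and siLINC01186 replicate 2.

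In siNC cells the 44 genes ranged from nearly silent to abundant. Levels between genes were compared per length, as deposited TPM (reads scaled for gene length to 1000000 per library). By the mean of both siNC libraries, 10 genes lay under 1 TPM, 14 from 1 to 10 TPM, 15 from 10 to 100 TPM and 5 at 100 TPM or more. The 5 highest were IFITM3 at 531 ± 70.2 TPM, BST2 at 450 ± 41.2 TPM, IFITM2 at 202 ± 35.4 TPM, ISG15 at 111 ± 60.7 TPM and ADAR at 106 ± 8.21 TPM (SD, n = 2 each). IFITM proteins hinder the fusion of viruses with the cell membrane. Their genes are similar in sequence, so that reads may have been split between them, which was not tested. BST2, or tetherin, holds budding virus particles at the cell surface. ISG15 is a ubiquitin-like protein that is attached to other proteins, and its siNC libraries lay far apart, at 68.6 TPM in replicate 1 and 154 TPM in replicate 2.

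Among the RNA sensors the enzymes that act on double-stranded RNA were abundant and the receptors were not. ADAR, which deaminates adenosines in double-stranded RNA, was followed by EIF2AK2 at 24.4 ± 2.75 TPM and MAVS at 24.4 ± 3.68 TPM. EIF2AK2 encodes PKR, the kinase that stops translation on binding double-stranded RNA, and MAVS is the adaptor on mitochondria. DDX58 stood at 3.54 ± 1.19 TPM, IFIH1 at 0.799 ± 0.367 TPM, DHX58, which encodes the RIG-I relative LGP2, at 0.463 ± 0.375 TPM, and TLR3 at 0.152 ± 0.0256 TPM (SD, n = 2 each). TLR3 had 4, 1, 3 and 6 reads, near the lowest level a library could show. TLR7 and TLR8, endosomal receptors for single-stranded RNA, had 1, 1, 0 and 1 reads and 1, 0, 0 and 0 reads.

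The IRF transcription factors were all expressed, from 11.3 ± 0.479 TPM for IRF1 to 76.6 ± 9.85 TPM for IRF3 (SD, n = 2). The antiviral genes that cells commonly raise after interferon were split in level. OAS3 (60.5 TPM), IFI35 (54.5 TPM), IFI6 (44.3 TPM) and OAS1 (27.4 TPM) were well expressed in siNC. MX1, a GTPase against several viruses, stood at 0.763 TPM and RSAD2, which encodes viperin, at 0.344 TPM. OAS2 (0.250 TPM), CXCL10 (0.162 TPM), MX2 (0.115 TPM), XAF1 (0.0723 TPM) and IFI44L (0.0456 TPM) were lower still. CXCL10, a chemokine, had 2, 2, 1 and 3 reads, under or at 3 in every library, and no fold is given for it.

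**Figure D1:**
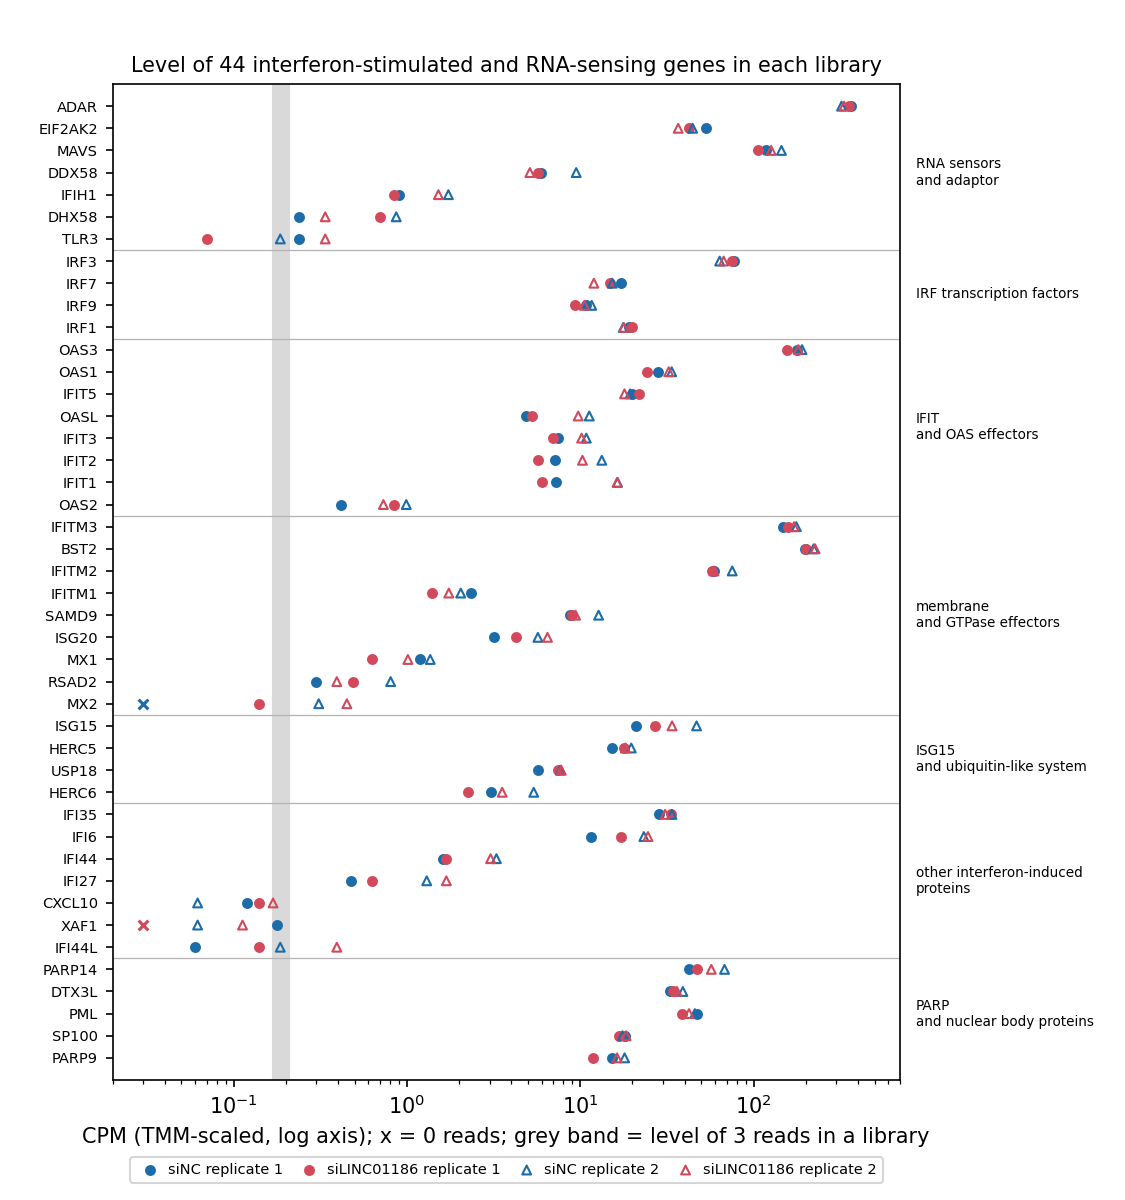
Level of the 44 genes in each library, in TMM-scaled CPM on a log axis, grouped by role. Circles are replicate 1 and open triangles replicate 2, in blue for siNC and in red for siLINC01186, a cross stands for 0 reads and the grey band for 3 reads in a library. The levels ran from 0 reads in a library for MX2 and XAF1 to between 322 and 364 CPM for ADAR, and CPM is not scaled for gene length.

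None of the 44 genes passed the test between siLINC01186 and siNC. With edgeR's quasi-likelihood test and Benjamini-Hochberg adjustment over all genes tested, at an adjusted p under 0.05, 0 of 44 were called, against 0% of the 23942 genes tested. At an unadjusted p under 0.05 there were also 0 of 44, against 1.21% of all genes (289 genes), and at the study's limits, a log2 fold change beyond 1 with an unadjusted p under 0.05, 0 of 44 against 0.756%. The median log2 fold change was -0.08 over the 44 genes and 0.00 over all genes. Of the 44 values 16 were above 0 and 28 below. DESeq2's Wald test called 0 of 44 as well.

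A rise was not detectable in the genes most often used to read an interferon response. ISG15 had 21.1, 27.1, 46.9 and 33.9 CPM. The siLINC01186 values lay between those of siNC, and the log2 fold change was -0.16 (95% interval -0.92 to 0.61). IFIT1, which binds viral RNA lacking the host cap modification, had 7.22, 6.02, 16.4 and 16.3 CPM, with a log2 fold change of -0.07 (95% interval -1.19 to 1.04). IFIT2 and IFIT3, its partners, had log2 fold changes of -0.35 (95% interval -1.22 to 0.52) and -0.08 (95% interval -0.79 to 0.63). OAS1, which makes short oligoadenylates on binding double-stranded RNA, had 28.1, 24.1, 33.7 and 32.4 CPM and a log2 fold change of -0.13 (95% interval -0.63 to 0.38). MX1 had 1.19, 0.630, 1.36 and 1.01 CPM, with both siLINC01186 libraries below both of siNC, and a log2 fold change of -0.62 (95% interval -1.79 to 0.55). RSAD2 had 5, 7, 13 and 7 reads, and the groups overlapped.

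All 44 intervals included 0. They come from a fit without the replicate number, so that their width also carries the difference between the replicates. IFIT1, for example, had within-number differences of -0.26 and -0.01. For 30 of the 44 the upper end lay under a log2 fold change of 1, and for 21 it lay under 0.5. For the other 14 genes, among them IFIT1, IFIH1, IFI27, ISG20, RSAD2 and CXCL10, the interval did not exclude a doubling. Narrow intervals belonged to abundant genes. BST2, with 198, 200, 222 and 226 CPM, had -0.40 to 0.44, and IFITM3, with 148, 158, 177 and 171 CPM, had -0.41 to 0.45. IFITM2, with 59.4, 57.3, 75.3 and 59.1 CPM, had -0.65 to 0.23.

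The sensors gave the smallest p-value among the 44 genes, and it was for a lower level. DDX58 had 5.91, 5.67, 9.48 and 5.12 CPM (log2 fold change -0.51, SE 0.33, unadjusted p = 0.152, adjusted p = 1.00, edgeR). Both siLINC01186 values lay below both of siNC, but replicate 1 differed little. EIF2AK2 had 52.9, 42.5, 44.5 and 36.7 CPM (log2 fold change -0.30, SE 0.19, unadjusted p = 0.159), again with both siLINC01186 libraries below both of siNC. MAVS had 118, 106, 145 and 126 CPM, ADAR 364, 357, 322 and 333 CPM, and IFIH1 0.895, 0.840, 1.73 and 1.52 CPM. DHX58 had 4, 10, 14 and 6 reads and went opposite ways in the numbered cultures. Of the transcription factors, IRF1 had 319, 286, 286 and 317 reads and IRF9 10.9, 9.38, 11.6 and 10.6 CPM.

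Since each numbered culture had its own siLINC01186 oligo, the differences were also taken within each number, as log2 CPM with a prior count of 2 and no test, for 1 library stood on each side. The median over the 44 genes was -0.01 in replicate 1, with 22 above 0 and 22 below, and -0.11 in replicate 2, with 14 above and 30 below. In both numbers 9 genes were higher with siLINC01186 (20.5%, against 27.2% of all genes) and 17 were lower (38.6%, against 26.6%). The 9 were IFI6, IFI27, IFI44L, MX2, IRF1, BST2, ISG20, CXCL10 and USP18. Among the 17 were DDX58, IFIH1, EIF2AK2 and MAVS of the sensors, IFIT1, IFIT2, IFIT3, OAS1 and OAS3. Both siLINC01186 libraries lay above both of siNC for 1 gene, CXCL10, against 13.6% of all genes. CXCL10 had 2 reads in each replicate 1 library, so their order (0.119 CPM in siNC, 0.140 CPM in siLINC01186) came from library scaling alone. Both siLINC01186 libraries lay below both of siNC for 8 genes (IFITM1, IFITM2, MX1, IRF7, IRF9, DDX58, EIF2AK2 and PML), against 12.4%. ISG15 had a difference of 0.36 in replicate 1 and of -0.47 in replicate 2.

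**Figure D2:**
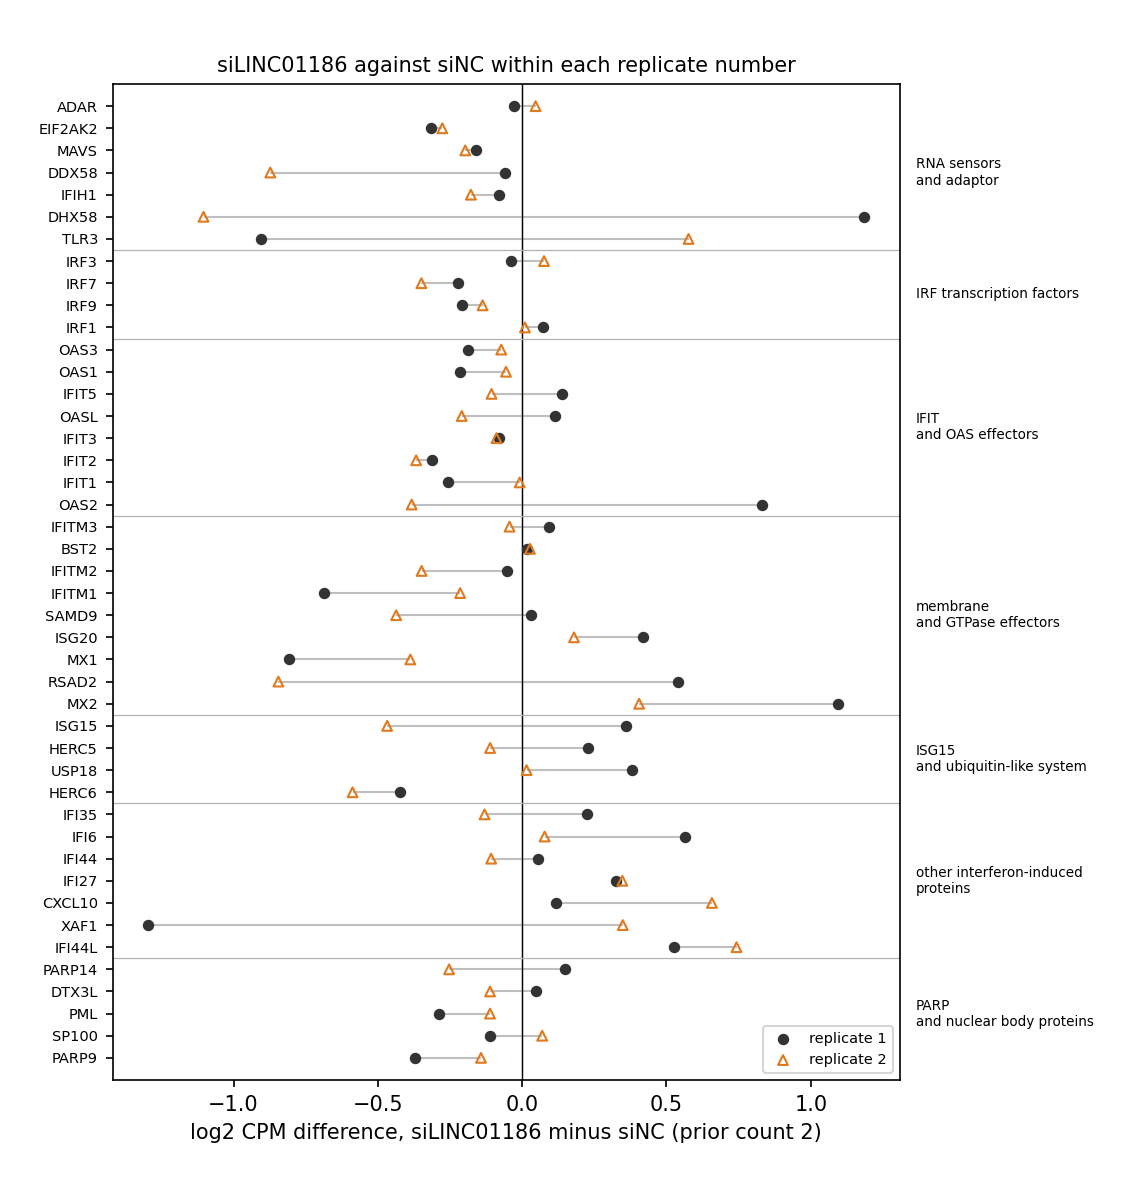
Difference in log2 CPM (prior count 2), siLINC01186 minus siNC, for each of the 44 genes within replicate 1 (filled circles) and replicate 2 (open triangles), joined by a line and grouped by role. The points scatter on both sides of 0, with medians of -0.01 and -0.11, and the widest gaps between the numbers belong to genes with few reads such as DHX58, XAF1 and RSAD2.

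Interferon genes themselves were nearly without reads. IFNB1, the interferon most often made by non-immune cells, had 1 read, in siLINC01186 replicate 2, and IFNL1 had 2, 1, 0 and 3. IFNL3, IFNK and IFNW1 had 1 or 0 reads in every library, and IFNL2, IFNA1, IFNA2 and IFNG had 0 in all 4, which at 3 reads allows up to 0.169 to 0.210 CPM. IFNE, an interferon with hormone-regulated expression, had 17, 3, 6 and 4 reads (log2 fold change -1.64, SE 0.81, unadjusted p = 0.0734, edgeR). Of 15 receptor and JAK-STAT genes 0 were called between the siRNAs, with STAT2 at 41.3, 37.5, 52.1 and 46.0 CPM. Of 17 genes that signal below the sensors 0 were called, and 0 of 16 further genes, among them RNA-binding, RNA-decay and GTPase genes. IFI16 stands in both of these lists. Of 15 genes of class I antigen presentation and 12 inflammatory genes 0 were called as well. The same fit called 0 of the 23942 genes tested, so a count of 0 in any list was fixed beforehand. LYZ, a myeloid marker, had 12, 2, 9 and 2 reads (unadjusted p = 0.0222, adjusted p = 1.00).

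Replicate 2 was then compared with replicate 1, called numbered cultures here, although the labels do not say how they were grown. With the siRNA as a covariate, 11 of the 44 genes (25%) were higher in replicate 2 than in replicate 1 at an adjusted p under 0.05, against 7.96% of all genes tested, and 0 were lower, against 9.55%. The 11 were ISG15, IFI6, IFI27, IFI44, IFIT1, IFIT2, IFIT3, OASL, ISG20, HERC6 and PARP14. In each of the 11, both replicate 2 libraries lay above both replicate 1 libraries, under siNC and siLINC01186 alike. The median log2 fold change was 0.30 over the 44 genes and 0.02 over all genes, and 37 of 44 values were above 0. Within siNC alone the median difference was 0.32 and within siLINC01186 alone 0.20. With this covariate 1 residual degree of freedom was left among the 4 libraries. The SEs and p-values of this comparison therefore rest on a spread pooled over all genes tested. They do not measure how well a single gene's own libraries agreed, nor any spread beyond these 4 libraries.

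The count of 11 depended on the test. DESeq2's Wald test called 2 of the 44 genes higher, IFIT1 and ISG15, against 1.30% of all genes. With edgeR's expression filter 6 of the 38 genes it kept were called higher, against 7.71%, and without the covariate 6 of 44, against 4.44%. With library totals alone, which moved the median of all genes to 0.13, 16 of 44 were called higher, against 11.7%. MAVS of the sensors was among these 16. In none of the alternatives run was a gene of the list called lower.

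Of the IFIT and OAS genes 4 of 8 were called higher in replicate 2, against 7.96% of all genes tested, and 7 had a log2 fold change above 0. IFIT1 had 121 and 86 reads in replicate 1, and 265 and 290 reads in replicate 2 (2.47-fold, log2 fold change 1.31, SE 0.18, adjusted p = 7.41e-11, edgeR). The siRNAs gave nearly the same value within replicate 2, at 16.4 and 16.3 CPM. IFIT2 had 7.16, 5.74, 13.3 and 10.3 CPM (1.83-fold, adjusted p = 9.95e-05), and IFIT3 had 124, 100, 175 and 181 reads (1.46-fold, adjusted p = 0.0267). IFIT5, the fourth gene of this cluster on chr10:91061706-91180759 (hg19), had 331, 311, 313 and 320 reads and a log2 fold change of -0.15 (95% interval -0.45 to 0.15). OASL, an OAS relative without synthetase activity, had 4.84, 5.25, 11.3 and 9.73 CPM (2.08-fold, adjusted p = 5.00e-06). OAS1, OAS2 and OAS3, neighbours on chr12:113344582-113449528, were not called. OAS1 had an unadjusted p = 0.0155 and an adjusted p = 0.0778, with a log2 fold change of 0.34.

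Of the ISG15 system 2 of 4 genes were called higher in replicate 2, against 7.96% of all genes tested, and all 4 had a log2 fold change above 0. ISG15 had 24.1 CPM on average in replicate 1 and 40.4 CPM in replicate 2 (1.67-fold, log2 fold change 0.74, SE 0.14, adjusted p = 6.24e-06). The difference between the cultures was 1.15 on the log2 scale under siNC and 0.32 under siLINC01186, and this gap has no residual degrees of freedom and was not tested. HERC6, a HERC-family ubiquitin ligase, had 3.04, 2.24, 5.39 and 3.54 CPM (1.68-fold, adjusted p = 0.0329). HERC5, the ligase that attaches ISG15, had 15.2, 17.8, 19.7 and 18.2 CPM and was not called. USP18, which removes ISG15, had 5.67, 7.42, 7.68 and 7.77 CPM and a log2 fold change of 0.25 (95% interval -0.15 to 0.64).

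IFI6, IFI27 and IFI44 were the called genes among 7 other interferon-induced proteins. The counts in this paragraph are to be read against 7.96% of all genes called higher. IFI6, a small protein of internal membranes, had 11.5, 17.1, 23.3 and 24.6 CPM (1.70-fold, adjusted p = 2.57e-05). IFI27 had few reads, 8, 9, 21 and 30 (2.68-fold, log2 fold change 1.42, SE 0.50, adjusted p = 0.0307). IFI44 had 1.61, 1.68, 3.28 and 3.04 CPM (1.92-fold, adjusted p = 0.0236). IFI44L, its neighbour, had 1, 2, 3 and 7 reads and was not called. ISG20, an exonuclease on single-stranded RNA, was the 1 called gene of 9 placed in the group headed membrane and GTPase effectors. It had 3.16, 4.27, 5.70 and 6.47 CPM (1.65-fold, adjusted p = 0.0173). PARP14, an ADP-ribosyltransferase, was the 1 of 5 PARP and nuclear body genes, with 42.4, 47.0, 68.0 and 57.1 CPM (1.40-fold, adjusted p = 0.00226). PARP9 had 257, 169, 291 and 290 reads (unadjusted p = 0.0338, adjusted p = 0.140). PARP9 and DTX3L lie on opposite strands with overlapping spans, and whether counting used strand is not given in the sources used here.

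In the main fit 0 of 7 sensors and 0 of 4 IRF genes were called between the cultures, against 17.5% of all genes in either direction. Counts this small do not set them apart from that share. MAVS (log2 fold change 0.27, unadjusted p = 0.0159, adjusted p = 0.0791) and IFIH1 (log2 fold change 0.90, unadjusted p = 0.0419, adjusted p = 0.163) had both replicate 2 libraries above both of replicate 1. For ADAR, IRF1, IRF3 and IFIT5 both replicate 2 libraries were below, a pattern held by 25.6% of all genes, and none of these 4 was called. For 24 of the 44 genes (54.5%) both replicate 2 libraries lay above both of replicate 1, against 27% of all genes. At an unadjusted p under 0.05, 15 of 44 were higher, against 12.7% of all genes, and 0 lower, against 14.3%.

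**Figure D3:**
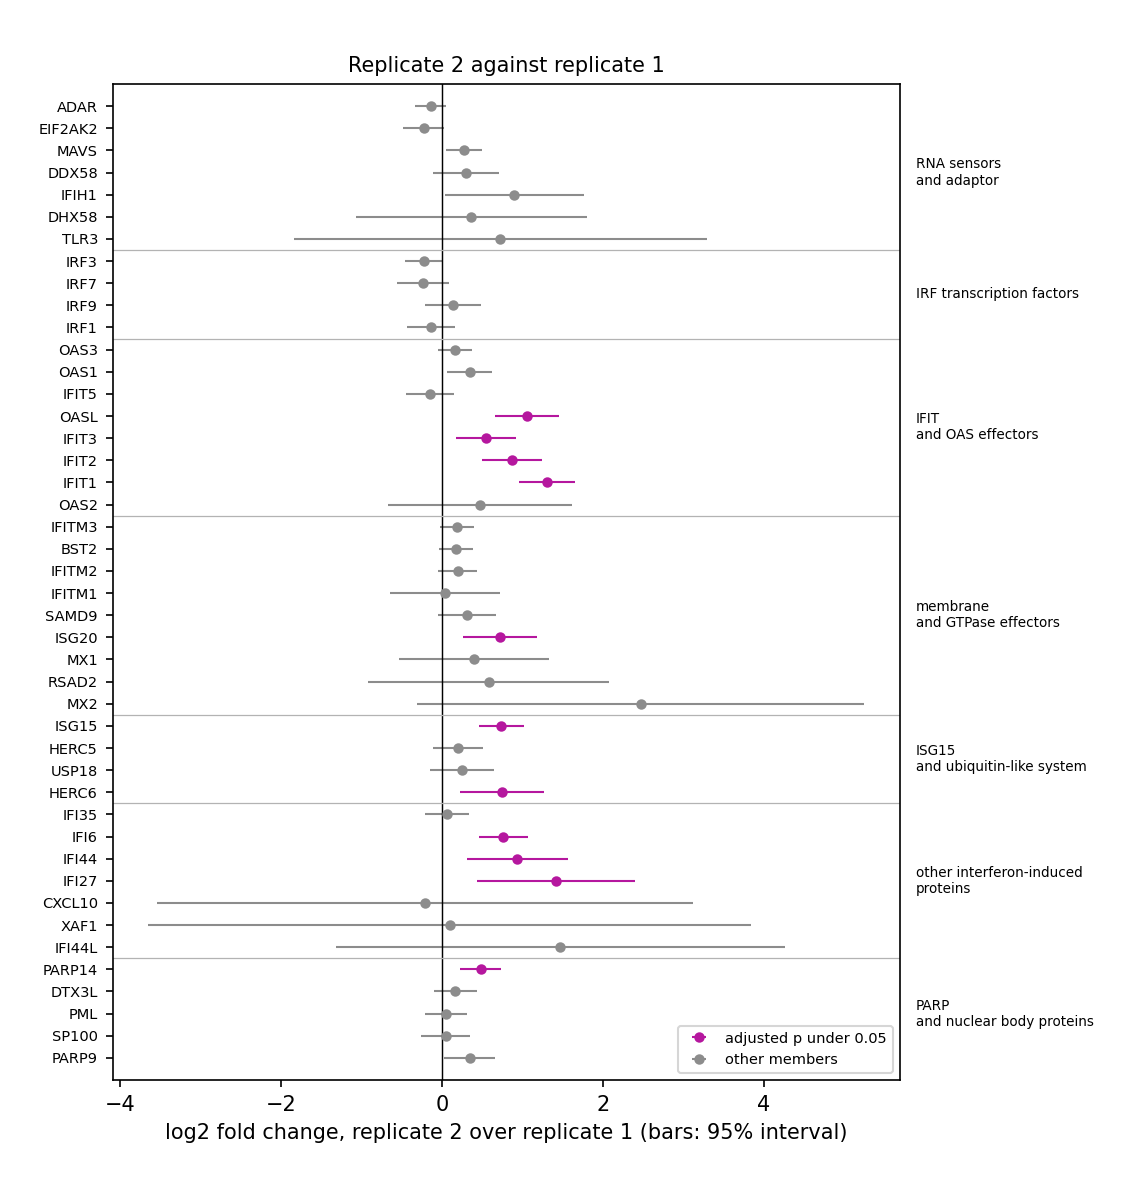
Log2 fold change of replicate 2 over replicate 1 for the 44 genes by role, from edgeR's fit with the siRNA as a covariate. Bars are 95% intervals, which rest on a spread pooled over all genes tested. The 11 genes at an adjusted p under 0.05, in purple, all lie above 0, and the sensors and IRF genes have none.

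**Figure D4:**
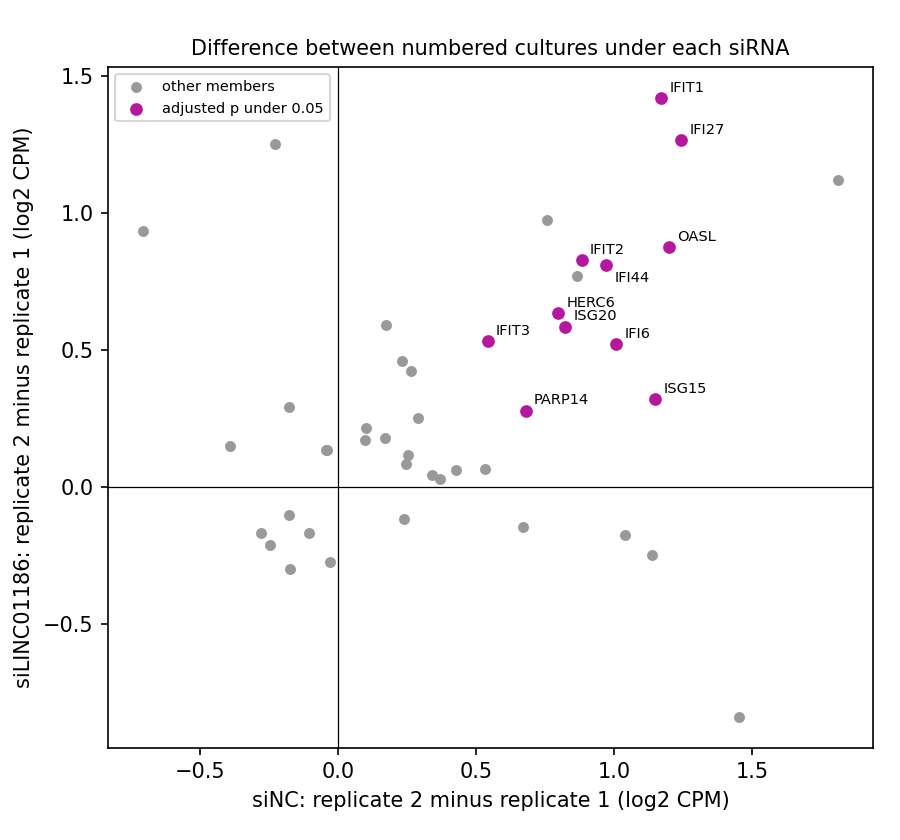
Difference between replicate 2 and replicate 1 in log2 CPM (prior count 2) under siNC on the horizontal axis and under siLINC01186 on the vertical axis, 1 point per gene, with the 11 called genes in purple. All 11 lie above 0 on both axes, IFIT1 and IFI27 furthest from 0 on the vertical axis, and ISG15 is higher on the horizontal axis (1.15) than on the vertical axis (0.32).

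Calls were also counted by depth. Among genes with a mean of under 20 reads, 1 of 10 listed genes was called higher in replicate 2, against 1.48% of all genes in that band. From 20 to 100 reads it was 3 of 5 against 15.7%, from 100 to 500 reads 5 of 16 against 15.8%, and over 500 reads 2 of 13 against 7.25%. At the study's limits 3 of 44 passed (IFI27, IFIT1 and OASL), against 4.81% of all genes in either direction. Among the 9 called genes with a promoter entry 8 held the ISRE core, and among the 25 others 16 did. HERC6 was the called gene with an entry and no core in this window. TTCNNNGAA, a palindrome and the GAS sequence of STAT dimers, was found for 10 of the 34 genes, against 9.38% of 27305 genes. By the same split it was found for 2 of the 9 called genes and 8 of the 25 others.

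In related lists calls between the cultures went both ways, and the counts below are to be read against 7.96% of all genes higher and 9.55% lower. Of 15 receptor and JAK-STAT genes 3 were higher in replicate 2 and 0 lower, namely IFNLR1, IL10RB and JAK1 (log2 fold changes 0.54, 0.63 and 0.36). IFNLR1 and IL10RB encode the chains of the receptor for type III interferon, and JAK1 is a kinase of the receptor. STAT2 had an unadjusted p = 0.0174 and an adjusted p = 0.0853. Of the 16 further genes, which include GTPase genes beside RNA-binding and RNA-decay genes, 3 were higher and 2 lower. GBP2, a guanylate-binding GTPase, had 25, 28, 99 and 119 reads (3.73-fold, adjusted p = 2.55e-10), SLFN5 was 1.74-fold higher and TRIM5 1.36-fold, while PNPT1 and PRKRA were lower (log2 fold changes -0.45 and -0.49). Of 15 genes of class I antigen presentation TAPBP, PSMB9 and NLRC5 were higher (log2 fold changes 0.38, 1.11 and 0.35) and TAP2 lower (-0.51). HLA-E had an adjusted p = 0.0592. Of 17 genes below the sensors IRF5 was higher (0.83), and TICAM1, the adaptor of TLR3, and MB21D1, which encodes the DNA sensor cGAS, were lower (-0.48 and -0.69). TBK1, the kinase that activates IRF3, had a log2 fold change of -0.34 (adjusted p = 0.0663). Of 12 inflammatory genes RELB was lower (-0.60), and CCL5 had 11, 8, 25 and 23 reads (adjusted p = 0.0750).

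Markers of the labelled cell type moved with the same cultures. Of 9 hepatocyte markers tested 6 were called higher in replicate 2 at an adjusted p under 0.05, against 7.96% of all genes, and 0 lower, against 9.55%. The 6 were ALB, APOA1, APOB, SERPINA1, TF and HNF4A. The number of the 10 markers at 0 reads was 6, 4, 1 and 0. Markers of immune, endothelial and stromal cells summed to 92.9, 94.3, 125 and 111 CPM, and COL1A1 and COL3A1 were among those higher in replicate 2. PTPRC, which marks all white blood cells, had 0, 0, 0 and 2 reads, and CD3E had 0 in all 4. The part of these markers in the higher interferon-stimulated genes was not tested. The labels give no date or batch for the numbers, so culture, handling and sequencing cannot be told apart. Under siLINC01186 the oligo also differed between the numbers and cannot be told apart from these. In bulk RNA more expressing cells cannot be told apart from more RNA per cell.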

How the data were processed

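Cells labelled HepG2 were transfected with siNC or siLINC01186, and 2 libraries per group were sequenced, grouped and numbered by their titles. The authors deposited, for each library, a table of raw counts and TPM values by gene. The submitters' processing notes name HISAT2, TopHat2, Bowtie2, HISAT and the build hg19. The counting program is not given in the sources used here. Reads were not realigned, and 0 columns of the tables were left unused. Of the gene identifiers 2 were duplicated.

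The members and lists were chosen with earlier results of these data known. Genes with at least 5 counts summed over 4 libraries (23942 genes) were scaled by TMM and compared with the quasi-likelihood test of edgeR 4.0.16 in R 4.3.3, without a block, with Benjamini-Hochberg adjustment. Replicate 2 was compared with replicate 1 with the siRNA as a covariate. In the main analysis TPM was used for levels in siNC only, since the transcript MIR6087 took between 1.16% and 13.8% of TPM in a library. Alternatives used DESeq2 1.42.0, other filters and scalings, a replicate block and leaving out libraries. The procedures were tested on simulated data. Values in every library are given for the sensors, for ISG15, IFIT1, IFIT2, IFIT3, MX1, OAS1, RSAD2, CXCL10, IRF1 and IRF9, and for the 5 highest members. They are also given for members with an unadjusted p under 0.05, for interferons with a read, and for STAT2 and LINC01186. Of the context genes under that p, some are given with these values and others without. Results for some genes under this rule are not reported here. Other members named beside them (IFIT5, HERC5, USP18, IFI44L) were chosen after their values were seen.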

Additional observations from a re-analysis of the deposited data

How the results depend on the processing

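The printed intervals for the siRNAs come from a fit without the replicate number and hold the spread between replicates as well as counting error. In every alternative run, 0 of the 44 genes were called between siLINC01186 and siNC at an adjusted p under 0.05, and 0 were called lower in replicate 2. No called value changed direction. Between the siRNAs, uncalled values changed sign in 53 comparisons of a gene and an alternative, and between the cultures in 12.

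Over all genes the siRNA comparison called 0 genes, DESeq2's Wald test 1 and a minimum of 1 count in any library 5, and at the study's limits, with 181 genes in the main analysis, the Wald test called 27 and edgeR's expression filter 46. Leaving out each library in turn, with the lone library of an arm assumed to vary like the others, gave 0 to 6 genes, 248 to 375 at the limits, 0 to 1 of the 44 genes at the limits and a median of -0.24 to 0.11 over the 44. The 1 was MX2, without siNC replicate 2, when the remaining siNC library had 0 reads. The numbers are shared only as numbers, since the labels do not say that they mark a culture or day. Same-numbered libraries deviated together (correlation 0.324 over 2 pairs). With a replicate block in edgeR 278 genes were called between the siRNAs (83 higher, 195 lower), or 1.16% of all genes tested, and 220 (0.919%) at the limits. Of the 44 listed genes 0 were called at an adjusted p under 0.05 (smallest adjusted p = 0.400). A list of 44 is too short for that count to set it apart from 1.16%. With deposited TPM the median difference within replicate 1 was -0.17. In that pair MIR6087 took 1.16% of TPM in siNC and 13.8% in siLINC01186, which lowers the TPM of other genes in siLINC01186.

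Between the cultures 4191 genes were called, against 925 with the Wald test, 2754 with the expression filter and 2158 without the covariate. At the limits the Wald test called 479 genes. The count of 11 listed genes became 2 with the Wald test, 6 with the expression filter and 6 without the covariate. With library totals alone 5 of the 44 listed genes passed the limits, against 1366 of all 23942 genes tested. The median over the 44 was then 0.41, and 68.5% of called genes were higher, against 45.5% with TMM. Leaving out a library while keeping the covariate left no residual degrees of freedom and was not possible. Without the covariate, an alternative chosen after seeing the data, it gave 1294 to 3332 genes (1508 without siNC replicate 1), 1206 to 1437 at the limits, 2 to 5 of the 44 at the limits and a median of 0.20 to 0.36. The listed genes called were then 3 without siNC replicate 1, 4 without siLINC01186 replicate 1, 7 without siNC replicate 2 and 9 without siLINC01186 replicate 2. The causes were not tested.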
